A study of Mus musculus with 10 samples.

Results

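The histone variant H2A.Z, the proteins that place it into chromatin and the proteins that read chromatin in the same complexes were followed at the level of their RNA in cells with inactivated Kat5 or Ep400. The 10 genes were taken by symbol from the deposited counts of 43346 genes: *H2afz* and *H2afv* (the older names of *H2az1* and *H2az2*) for the variant, *Srcap*, *Znhit1*, *Vps72*, *Yeats4* and *Actl6a* for exchange complexes, and *Morf4l1*, *Morf4l2* and *Mrgbp* for the MRG module. Polyadenylated RNA was sequenced from O9-1 cells, a tetraploid mouse line of the cranial neural crest that was grown on Matrigel in conditioned medium. There were 4 libraries of wildtype cells labelled as biological replicates (WT/1 to WT/4), 3 Kat5 ko clones (Kat5/1 to Kat5/3) and 3 Ep400 ko clones (Ep400/1 to Ep400/3). Each knockout line is 1 clone obtained with CRISPR/Cas9 and grown from a sorted cell, so that effects of the edit and differences between clones cannot be told apart for a single clone. The wildtype libraries come from the unedited line, for which no such cloning is described. Editing and cloning thus cannot be told apart between knockout and wildtype groups either. According to the study's description of the clones, all *Kat5* alleles of the Kat5 ko clones carried insertions or deletions. Ep400/1 had frameshifts in every *Ep400* allele, whereas Ep400/3 kept an in-frame deletion in a minority of alleles and Ep400/2 in the majority, each at the ATP binding site.

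H2A.Z replaces H2A in nucleosomes around transcription start sites and at enhancers. In mammals it is encoded by a pair of genes on different chromosomes whose protein products are nearly identical. The SRCAP complex and the Tip60/Ep400 complex both load it, the first through the ATPase Srcap and the latter through the ATPase Ep400. They share subunits that hold the H2A.Z dimer or bind acetylated histone tails. The Tip60/Ep400 complex also has subunits that bind methylated histone tails. Kat5 is the acetyltransferase of the Tip60/Ep400 complex.

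*H2afz* lies on the plus strand of chromosome 3 (chr3:137864487-137866922, GRCm38, the assembly also called mm10) and *H2afv* on the minus strand of chromosome 11 (chr11:6427229-6444443). The beginning of both coding sequences is shown because the levels of the pair are compared in the following and reads must be able to tell them apart. Capitals mark the bases that differ in the alignment without gaps. The sequences are those of the GENCODE M21 transcripts H2afz-201 and H2afv-202.

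H2afz: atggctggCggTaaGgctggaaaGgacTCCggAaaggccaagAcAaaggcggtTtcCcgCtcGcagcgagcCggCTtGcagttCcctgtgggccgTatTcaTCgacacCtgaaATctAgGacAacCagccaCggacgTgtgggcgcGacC

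H2afv: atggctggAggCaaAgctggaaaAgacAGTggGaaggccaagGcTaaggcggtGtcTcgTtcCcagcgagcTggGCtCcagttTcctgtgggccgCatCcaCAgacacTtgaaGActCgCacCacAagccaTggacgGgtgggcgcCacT

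Of the 384 coding bases without the stop codon, 304 (79.2%) were identical and 80 differed, 34 of them within the 150 bases shown. The longest stretch shared by the whole transcripts had 14 bases, which is far below the read length of 100 bases. For *Morf4l1* and *Morf4l2* this stretch had 20 bases. *H2afz* shared a run of 100 bases with 4 other annotated genes, among them the processed pseudogene *Gm8203* with 24 to 97 counts per library and a transcript of *Tmcc1* with 691 to 1092 counts. Reads from such runs may have been divided between the genes, but the counts of *H2afz* itself lay between 3863 and 20926. *Vps72*, *Yeats4*, *Mrgbp* and *H2afv* shared no such run with any annotated gene.

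The 250 bases in front of the annotated starts of *H2afz* and *H2afv*, and 246 bases for *Morf4l2*, are given because the results turn on these genes (RefSeq annotation on GRCm38.p6, each written in the direction of transcription). The RefSeq start of *Morf4l2* lies 4 bases from the start of the GENCODE gene, and the bases shown end in front of the latter. They are chr3:137864237-137864486 on the plus strand, chr11:6444444-6444693 on the minus strand and chrX:136743691-136743936 on the minus strand. Capitals mark each CCAAT box, read as CCAAT or as ATTGG on the other strand.

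H2afz promoter: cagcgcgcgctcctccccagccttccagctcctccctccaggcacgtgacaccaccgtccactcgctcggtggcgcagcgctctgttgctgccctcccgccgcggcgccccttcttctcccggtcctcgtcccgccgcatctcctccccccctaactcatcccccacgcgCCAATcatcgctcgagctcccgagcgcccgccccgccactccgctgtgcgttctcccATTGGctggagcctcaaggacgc

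H2afv promoter: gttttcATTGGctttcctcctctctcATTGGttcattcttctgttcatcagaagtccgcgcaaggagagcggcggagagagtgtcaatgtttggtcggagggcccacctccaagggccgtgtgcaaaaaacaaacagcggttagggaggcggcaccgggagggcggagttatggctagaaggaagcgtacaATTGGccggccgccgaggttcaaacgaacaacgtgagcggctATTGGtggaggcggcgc

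Morf4l2 promoter: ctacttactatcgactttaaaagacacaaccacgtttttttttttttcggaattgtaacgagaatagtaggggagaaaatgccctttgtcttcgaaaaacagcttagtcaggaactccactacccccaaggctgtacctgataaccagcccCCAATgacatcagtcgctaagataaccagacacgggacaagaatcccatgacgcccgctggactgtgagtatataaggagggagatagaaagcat

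The box occurred 2 times before *H2afz*, 4 times before *H2afv* and 1 time before *Morf4l2*. A promoter was found for 9 of the 10 genes, all but *Vps72*, and 5 of these 9 held a CCAAT box in the searched window, compared with 33.8% of 32851 promoters. The start used for *Actl6a*, whose promoter held none, lies 2248 bases from the start of the GENCODE gene, so that this window need not be that of the counted gene. The cell cycle homology motif TTTGAA was found in 1 of the 9 promoters, that of *H2afv*, and in 16% of all promoters. The E2F motif TTTNGCGC was found in 0 of the 9 and in 1.13% of all. Both strands were searched, and such matches describe letters in a window and not bound sites.

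Between 30968945 and 48301792 reads per library were counted on genes, and mitochondrial genes took 0.893% to 3.24% of them. *Kat5* RNA in the Kat5 ko clones averaged 38.7% of its wildtype level (log2-fold change −1.40, standard error 0.17, adjusted p = 0.0207), and *Ep400* RNA in the Ep400 ko clones 36.8% (−1.44, standard error 0.12, adjusted p = 0.0012). In both cases all clones lay below all wildtype libraries. Of 12 cranial neural crest markers, *Twist1*, *Sox9*, *Prrx1*, *Pdgfra* and others were expressed in all libraries, whereas *Sox10* was at 0 in every library and *Ngfr* did not exceed 0.312 CPM. In the Ep400 ko clones 11 of these markers were tested, and 3 were called higher and 0 lower, compared with 8.0% and 5.72% of all genes. They were *Pdgfra* (mean 588 CPM against 123 CPM in wildtype, adjusted p = 0.00105), *Tfap2a* (87.2 against 33.6 CPM, adjusted p = 0.023) and *Snai2* (49.4 against 27.3 CPM, adjusted p = 0.0451). By direction 7 of the 11 were higher and 4 lower. Among the latter, *Snai1* (log2-fold change −0.47, adjusted p = 0.104) and *Sox9* (−0.40, adjusted p = 0.161) lay below all wildtype libraries, as did 14.1% of all genes. Of 4 markers of neurons and glia, 2 were tested in the Ep400 ko clones. Of these, *Tubb3* was called higher (12.9 against 3.64 CPM, adjusted p = 0.0374), compared with 8.0% of all genes. *Elavl3* did not exceed 0.0625 CPM, and the summed level was 4.10 to 6.96 CPM in wildtype, 2.60 to 11.6 CPM in Kat5 ko and 11.4 to 24.2 CPM in Ep400 ko clones. Of 4 epithelial markers, 3 were tested in the Ep400 ko clones. Of these, *Krt8* (0.35 against 1.63 CPM, adjusted p = 0.0217) and *Krt18* (0.0166 against 1.13 CPM, adjusted p = 0.0186) were called lower, compared with 5.72% of all genes. The summed level was 1.62 to 4.70 CPM in wildtype, 0.309 to 0.827 CPM in Kat5 ko and 0.516 to 0.921 CPM in Ep400 ko clones. The part of these markers in the differences of the 10 genes was not tested. Markers of pluripotent cells (*Pou5f1*, *Nanog*) did not exceed 0.0578 CPM. The summed level of 4 smooth muscle markers stood apart in Kat5/1, with 685 CPM against 0.461 and 23.8 CPM in the other Kat5 ko clones, 5.84 to 16.6 CPM in wildtype and 2.34 to 58.8 CPM in Ep400 ko clones.

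Levels are given in CPM, the counts of a gene scaled to a common library size that was adjusted by TMM. A gene was called changed when its adjusted p did not exceed 0.05. The p values are those of edgeR (quasi-likelihood test) and were adjusted over all tested genes by the method of Benjamini and Hochberg. All 10 genes had sufficient counts and were tested in all 3 comparisons. As RNA of whole cultures was sequenced, fewer cells of a type and less RNA per cell cannot be told apart.

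In the Ep400 ko clones, *H2afz* and *Morf4l2* fell, to 50.3% and 58.8% of their mean wildtype CPM, and none of the 10 genes was called higher. This is 2 of 10 genes called lower, compared with 5.72% of the 13836 genes tested that were called lower (8.0% were called higher and 13.7% in either direction). In the Kat5 ko clones 0 of the 10 genes passed the test, where 0.625% of 13434 genes did (0.179% higher and 0.447% lower). *H2afv* averaged 58.0% of wildtype CPM there, but its clones were far apart. Between the Ep400 ko and the Kat5 ko clones, 0 of 10 passed, compared with 7.05% of 13587 genes (4.22% higher and 2.83% lower). Without adjustment of p, at the same limit, the counts were 2 (Kat5 ko against wildtype), 3 (Ep400 ko against wildtype) and 3 (Ep400 ko against Kat5 ko). The share of all genes at this limit is not given here, so these counts are no result about the 10 genes. DESeq2 called 0, 3 and 2 of the 10 genes in this order, compared with 1489, 3131 and 3067 of all genes. For limma-voom it was 0, 2 and 1, compared with 98, 1888 and 1132 of all genes. The comparisons with wildtype share the 4 wildtype libraries and are not independent of each other.

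**Figure D1:**
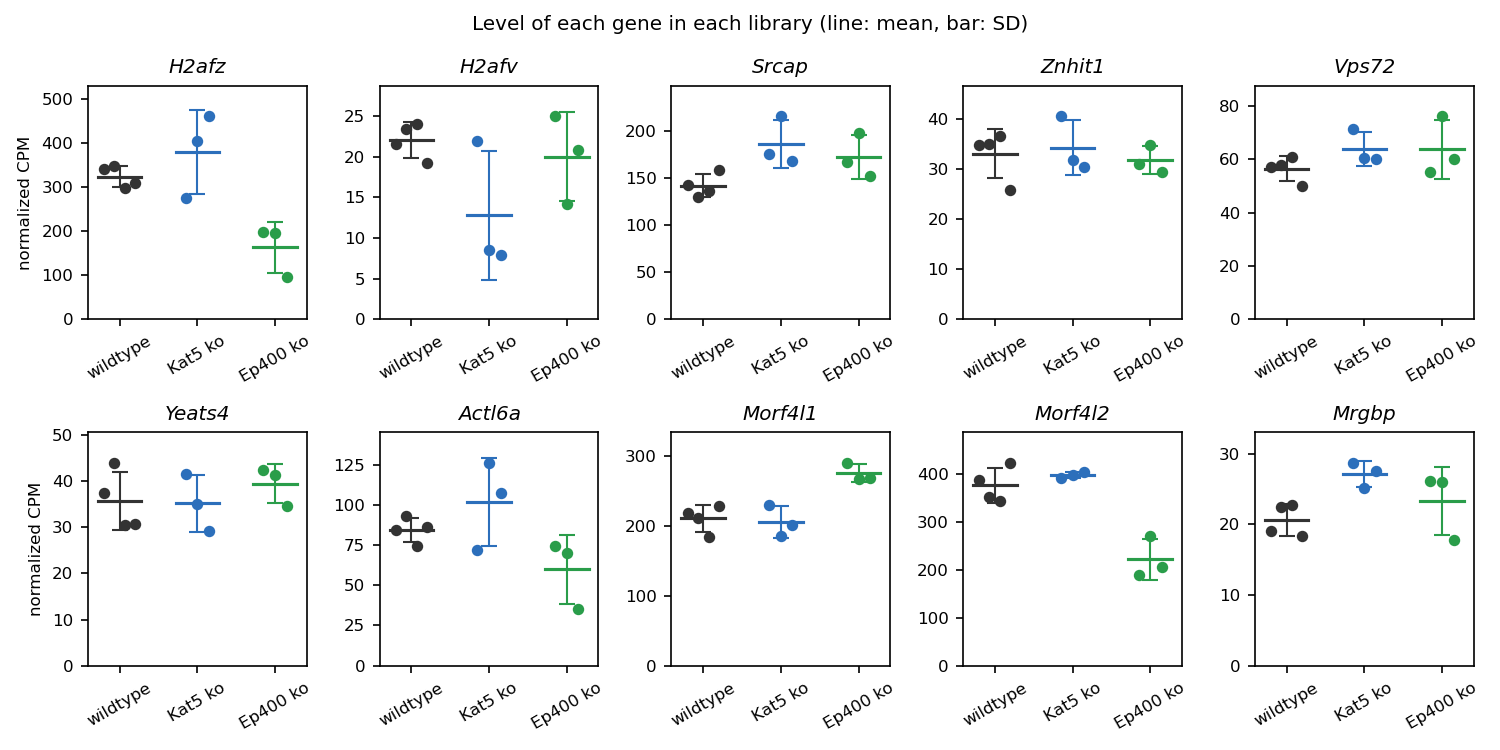
Normalized CPM of the 10 genes in each library (points), with the mean (line) and SD (bar) of the 4 wildtype libraries, 3 Kat5 ko clones and 3 Ep400 ko clones. All Ep400 ko clones lie below all wildtype libraries for H2afz (96.2 to 197 against 298 to 348 CPM) and Morf4l2 (189 to 271 against 345 to 424 CPM), and Kat5/2 and Kat5/3 stand apart with 8.50 and 7.93 CPM of H2afv.

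*H2afz*, the H2A.Z gene that early mouse development depends on, had 342, 348, 298 and 309 CPM in WT/1 to WT/4. The Ep400 ko clones had 197, 196 and 96.2 CPM. All 3 lay below the wildtype range, and Ep400/3 was lowest. The log2-fold change was −0.99 (standard error 0.25, 95% interval −1.56 to −0.42, adjusted p = 0.0345). This call was lost when WT/1, WT/2, WT/3 or WT/4 was left out, with adjusted p values of 0.0898, 0.082, 0.054 and 0.0777 and log2-fold changes between −1.04 and −0.96. With the replicate block it was lost as well (−1.08, adjusted p = 0.0839). Without Ep400/3 the log2-fold change was −0.73 and *H2afz* was still called.

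In the Kat5 ko clones, *H2afz* had 275, 406 and 461 CPM. Kat5/1 was thus below and Kat5/2 and Kat5/3 were above all wildtype libraries, and the difference from wildtype was within the spread of the clones (log2-fold change 0.20, 95% interval −0.22 to 0.61, adjusted p = 0.551). All Ep400 ko clones had less *H2afz* RNA than all Kat5 ko clones. This direct comparison gave a log2-fold change of −1.24 (95% interval −2.03 to −0.45), which missed the threshold (adjusted p = 0.0616). Without Kat5/1 it was −1.43 with an adjusted p of 0.04.

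*H2afv*, the gene of the other H2A.Z form, had 21.6, 23.5, 24.1 and 19.2 CPM in the wildtype libraries. In the Kat5 ko clones it had 22, 8.50 and 7.93 CPM. Kat5/1 was within the wildtype range, whereas Kat5/2 and Kat5/3 had less than any other library. Kat5/1 was also the library with 685 CPM of smooth muscle markers, whose part in this difference was not tested. The resulting log2-fold change of −0.81 (standard error 0.36, 95% interval −1.63 to 0.02) did not pass the test (adjusted p = 0.231). Without Kat5/1 it was −1.46 (adjusted p = 0.00471), the only alternative in which a gene of this group was called in the Kat5 ko clones. The Ep400 ko clones had 25, 14.2 and 20.9 CPM of *H2afv* and overlapped with wildtype (log2-fold change −0.14, 95% interval −0.62 to 0.34, adjusted p = 0.677).

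*H2afz* exceeded *H2afv* in every library. Per kilobase of annotated exon, the ratio of *H2afz* to *H2afv* was 14.6, 13.6, 11.4 and 14.8 in wildtype cells, 11.5, 43.9 and 53.4 in the Kat5 ko clones and 7.25, 12.7 and 4.24 in the Ep400 ko clones. *H2afz* thus supplied 91.9% to 93.7% of the RNA of the pair in wildtype, 92.0% to 98.2% in the Kat5 ko clones and 80.9% to 92.7% in the Ep400 ko clones. Means of this share were 93.1% ± 0.83 (SD, n = 4), 96.0% ± 3.47 (SD, n = 3) and 87.2% ± 5.93 (SD, n = 3). Kat5/1 and Ep400/2 were within the wildtype range, whereas Kat5/2 and Kat5/3 lay above and Ep400/1 and Ep400/3 below it. In the exact two-sided permutation test, the share differed from wildtype by 2.89 percentage points in Kat5 ko (p = 0.229) and by −5.92 in Ep400 ko (p = 0.114), and between Ep400 ko and Kat5 ko by −8.82 (p = 0.2). All 3 had an adjusted p of 0.229. The size of these differences moved with single clones. In Kat5 ko it was 4.88 without Kat5/1 and 1.80 without Kat5/3, and in Ep400 ko it was −2.79 without Ep400/3 and −8.69 without Ep400/2. Between the knockouts it was −5.69 without Ep400/3. The length matters too, since annotated exons of *H2afz* cover 1776 bases and its longest coding transcript 1069, whereas both are 1633 for *H2afv*. With the transcript lengths, an alternative chosen after the data were seen, the share was 95% to 96.1% in wildtype, 95% to 98.9% in Kat5 ko and 87.6% to 95.5% in Ep400 ko clones, and the differences were 1.80, −3.93 and −5.73 in the same order. With 3 clones against 4 libraries the smallest possible p was 0.0571, and with 3 against 3 it was 0.1.

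Summed over both genes, the level in CPM per kilobase was 206, 210, 182 and 186 in the wildtype libraries, 168, 234 and 265 in the Kat5 ko clones and 126, 119 and 66.9 in the Ep400 ko clones. The Ep400 ko clones were the 3 lowest of all 10 libraries. The mean log2 level differed by −0.967 between Ep400 ko and wildtype and by −1.12 between Ep400 ko and Kat5 ko, with exact permutation p values of 0.0571 and 0.1 (adjusted p = 0.15 for both). These are the smallest values that the design allows. Between Kat5 ko and wildtype the difference was 0.158 (exact permutation p = 0.343, adjusted p = 0.343), and it was 0.35 without Kat5/1 and 0.02 without Kat5/3.

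**Figure D2:**
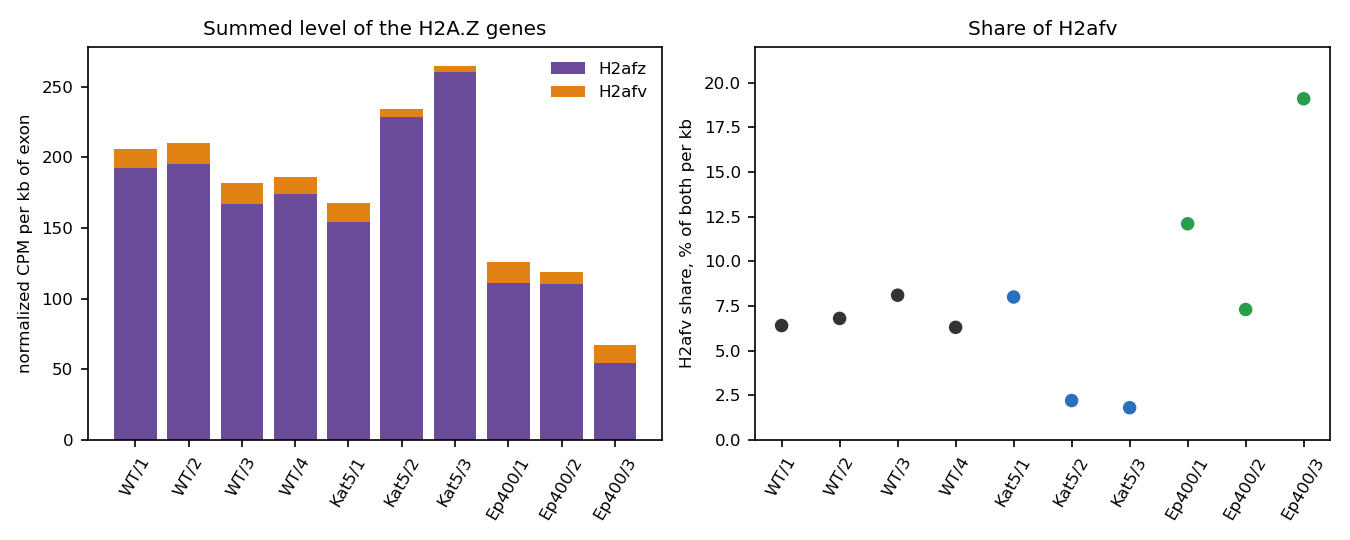
Left, summed level of H2afz and H2afv in normalized CPM per kilobase of exon for each library (stacked bars). Right, share of H2afv in that sum in percent for each library (black, wildtype; blue, Kat5 ko; green, Ep400 ko); the sum is lowest in the Ep400 ko clones with 66.9 to 126, and the share is lowest in Kat5/2 and Kat5/3.

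The level of proliferation genes differed between the clones as well. Their median difference from the wildtype mean over 16 genes, on the log2 scale of expression levels, was 0.07, 0.51 and 0.41 in Kat5/1 to Kat5/3 and 0.04, −0.40 and −1.20 in Ep400/1 to Ep400/3. Their summed level was 3497 to 3778 CPM in wildtype, 3665 to 5474 CPM in Kat5 ko and 1585 to 3629 CPM in Ep400 ko clones. Against wildtype, all 16 genes were lower in Ep400 ko (median log2-fold change −0.49) and all 16 higher in Kat5 ko (median 0.33). By contrast, the study reported slower growth and fewer mitotic cells than in wildtype for both kinds of knockout clones. The RNA levels of these genes are therefore not a measure of the rate of proliferation. In Ep400 ko 1 was called, *Top2a* for DNA topoisomerase II alpha (log2-fold change −0.75, adjusted p = 0.0294), compared with 5.72% of all genes called lower. There, 4 passed without adjustment of p, and 1 with DESeq2. In Kat5 ko 0 were called, compared with 0.625% of all genes (5 without adjustment of p, and 1 with DESeq2). Between the knockouts all 16 were lower in Ep400 ko, with a median log2-fold change of −0.92. Of these, 0 passed the test, compared with 7.05% of all genes (9 without adjustment, and 5 with DESeq2). Over all genes DESeq2 called 1489 of 13434 in Kat5 ko, 3131 of 13836 in Ep400 ko and 3067 of 13587 between the knockouts. The share of all genes that passed without adjustment is not given here. In Ep400/1 to Ep400/3 *H2afz* differed from its wildtype mean by −0.72, −0.72 and −1.75 on the same scale. The part of proliferation in the differences of *H2afz* was not tested.

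*Srcap*, the ATPase of the SRCAP complex, had 142, 130, 136 and 158 CPM in wildtype libraries. It had 175, 215 and 168 CPM in the Kat5 ko clones and 167, 197 and 152 CPM in the Ep400 ko clones. All Kat5 ko clones lay above the wildtype range, while Ep400/3 lay within it. The log2-fold changes of 0.36 (Kat5 ko, 95% interval 0.04 to 0.69, adjusted p = 0.181) and 0.28 (Ep400 ko, 95% interval −0.04 to 0.60, adjusted p = 0.207) did not pass the test. *Znhit1*, a zinc finger subunit of the same complex, ranged from 25.8 to 36.7 CPM in wildtype, from 30.5 to 40.6 CPM in Kat5 ko and from 29.5 to 34.9 CPM in Ep400 ko clones. Its log2-fold changes of 0.02 and −0.06 had 95% intervals of −0.39 to 0.44 and −0.43 to 0.32. *Znhit1*, with 964 to 1475 counts per library, overlaps *Plod3* on the opposite strand, which had 2689 to 5553 counts. The library kit keeps strand information, but whether the counting used it is not given in the sources used here, and without it reads of such overlapping genes cannot be told apart.

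*Vps72*, the subunit that holds the H2A.Z dimer in both complexes, had 50.0 to 60.9 CPM in wildtype libraries. It had 60.1 to 71.3 CPM in Kat5 ko and 55.1 to 76.1 CPM in Ep400 ko clones. The ranges overlapped, with log2-fold changes of 0.15 (adjusted p = 0.546) and 0.17 (adjusted p = 0.456). *Yeats4*, which binds acylated histone H3 through its YEATS domain, likewise overlapped between all groups, with 30.6 to 44.0 CPM in wildtype, 29.2 to 41.6 CPM in Kat5 ko and 34.6 to 42.4 CPM in Ep400 ko clones. Its log2-fold changes from wildtype were −0.05 (95% interval −0.48 to 0.39) and 0.14 (95% interval −0.25 to 0.54).

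*Actl6a* encodes an actin-related protein that is also part of the INO80 and BAF remodeling complexes. It had 84.0, 92.8, 74.2 and 86.1 CPM in wildtype, 71.8, 126 and 107 CPM in the Kat5 ko clones and 74.1, 70.1 and 35.4 CPM in the Ep400 ko clones. The Ep400 ko clones were below the wildtype range, Ep400/1 by less than 1 CPM and Ep400/3 by the widest margin, but overlapped with Kat5/1. The log2-fold change in Ep400 ko of −0.49 (standard error 0.24, 95% interval −1.05 to 0.06) did not pass the test (adjusted p = 0.198), and was −0.23 without Ep400/3. The same held for the Kat5 ko clones (0.24, 95% interval −0.20 to 0.67, adjusted p = 0.496), with 0.44 without Kat5/1 and 0.07 without Kat5/2, and for Ep400 ko against Kat5 ko (−0.78, 95% interval −1.56 to −0.01, adjusted p = 0.151), with −0.51 without Ep400/3. *Actl6a* was highest in Kat5/2 and lowest in Ep400/3, as were the proliferation genes, whose part in these values was not tested. *Actl6a*, with 1421 to 4877 counts per library, overlaps *Mrpl47* on the opposite strand, which had 688 to 1797 counts.

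**Figure D3:**
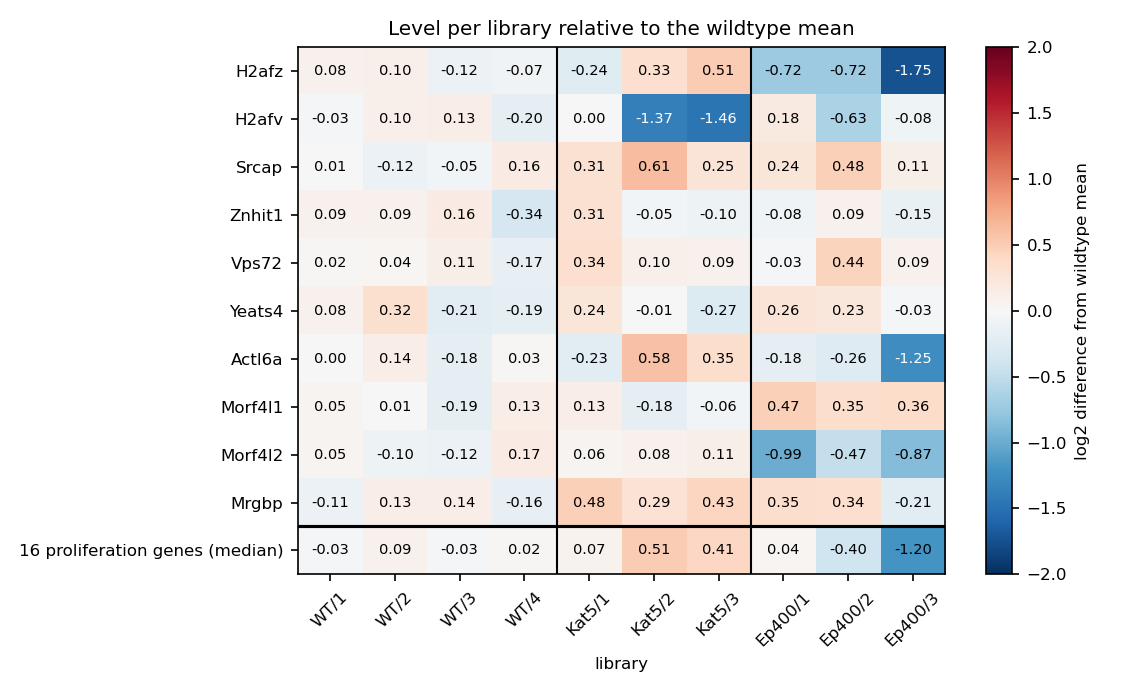
Difference of each library from the wildtype mean on the log2 CPM scale for the 10 genes and, below the line, the median of the 16 proliferation genes. H2afz, Actl6a and the proliferation genes are lowest in Ep400/3 (−1.75, −1.25 and −1.20), whereas Morf4l2 is lower in all Ep400 ko clones (−0.99, −0.47 and −0.87) and H2afv in Kat5/2 and Kat5/3 (−1.37 and −1.46).

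The MRG module of the Tip60/Ep400 complex showed its paralogs on opposite sides of the wildtype level in the Ep400 ko clones. *Morf4l2* (chrX:136732942-136743690, minus strand) encodes the MRG protein without a chromodomain. It had 389, 352, 345 and 424 CPM in wildtype libraries. The Ep400 ko clones had 189, 271 and 206 CPM and were all below the wildtype range. The log2-fold change was −0.77 (standard error 0.17, 95% interval −1.16 to −0.38, adjusted p = 0.0232). It ranged between −0.96 and −0.66 over 15 alternatives, and the call was lost in 4 of them. These were without WT/1 (adjusted p = 0.0715), WT/4 (0.0689) or Ep400/1 (0.0515), and with the replicate block (−0.72, adjusted p = 0.115). Genes of chromosome X were shifted by a median of −0.249, −0.041 and −0.046 on the log2 scale in Ep400/1 to Ep400/3. With these shifts as offsets, *Morf4l2* still fell by 0.66 on the log2 scale, with an adjusted p of 0.0232. An overlapping transcript on the opposite strand, *BC065397*, had 33 to 125 counts, compared with at least 8056 for *Morf4l2*.

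In the Kat5 ko clones, *Morf4l2* had 392, 398 and 406 CPM, all within the wildtype range (log2-fold change 0.05, 95% interval −0.25 to 0.34, adjusted p = 0.855). The ratio of the highest to the lowest of these values was 1.04, less than in any other group for any of the 10 genes. All Ep400 ko clones lay below all Kat5 ko clones. The direct difference of −0.87 (95% interval −1.36 to −0.37) missed the threshold (adjusted p = 0.0525), and passed it without Kat5/1 (−0.88, adjusted p = 0.0469).

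*Morf4l1* encodes the paralog whose chromodomain binds methylated histone H3. It had 218, 211, 184 and 229 CPM in wildtype, 230, 185 and 201 CPM in the Kat5 ko clones and 290, 267 and 268 CPM in the Ep400 ko clones. All Ep400 ko clones lay above all other libraries. The log2-fold change from wildtype of 0.39 (standard error 0.13, 95% interval 0.08 to 0.69) did not pass edgeR's test (adjusted p = 0.0859) but passed with DESeq2 (0.37, adjusted p = 0.0429). Genes of chromosome 9 were shifted by medians of 0.183, 0.078 and 0.182 in these clones, and with that offset the log2-fold change was 0.23 (adjusted p = 0.231). In the Kat5 ko clones it was −0.06 (95% interval −0.39 to 0.26).

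*Mrgbp*, which links the MRG proteins to the complex, had 19.0, 22.4, 22.7 and 18.3 CPM in wildtype libraries. The Kat5 ko clones had 28.7, 25.1 and 27.6 CPM and the Ep400 ko clones 26.2, 26.0 and 17.8 CPM. The Kat5 ko clones were all above the wildtype range, with a log2-fold change of 0.37 (95% interval 0.02 to 0.71) that did not pass the test (adjusted p = 0.2). Among the Ep400 ko clones, Ep400/1 and Ep400/2 were above and Ep400/3 below this range (log2-fold change 0.18, 95% interval −0.25 to 0.60, adjusted p = 0.545).

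Counting groups that did not overlap, 2 of 10 genes (*Srcap* and *Mrgbp*) lay above wildtype in every Kat5 ko clone and 0 below, compared with 9.67% of all genes above and 10.2% below (19.9% together). In the Ep400 ko clones 1 gene (*Morf4l1*) lay above and 3 (*H2afz*, *Actl6a* and *Morf4l2*) below, compared with 16.1% and 14.1% of all genes (30.2% together). Between the knockouts it was 1 above (*Morf4l1*) and 2 below (*H2afz* and *Morf4l2*) compared with 20.5% and 18.0% of all genes (38.5% together). The median log2-fold change of the 10 genes was 0.10 in Kat5 ko and 0.04 in Ep400 ko against wildtype, with medians over all tested genes of 0.00 and 0.04. The median size of the change was 0.18 and 0.23, compared with 0.31 and 0.39 over all tested genes. At a stricter limit that also asked for a log2-fold change of at least 1 in size, 0 of the 10 genes counted as changed with edgeR, TMM and the filter on low counts over all libraries of a comparison. In Ep400 ko against wildtype *H2afz* lay close to this limit and passed it without Ep400/1 (−1.15, adjusted p = 0.0367), without Ep400/2 (−1.17, adjusted p = 0.0449), and with DESeq2 (−1.01, adjusted p = 0.002), limma-voom (−1.06, adjusted p = 0.0291), RLE size factors (−1.01, adjusted p = 0.034) and no filter (−1.03, adjusted p = 0.0188). Between the knockouts *H2afz* passed it with DESeq2 (−1.23, adjusted p = 0.00698), no filter (−1.24, adjusted p = 0.0406), 1 fit over all libraries (−1.22, adjusted p = 0.0141) and without Kat5/1. *H2afv* passed it without Kat5/1 in Kat5 ko against wildtype (−1.46, adjusted p = 0.00471) and between the knockouts (1.26, adjusted p = 0.0459).

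**Figure D4:**
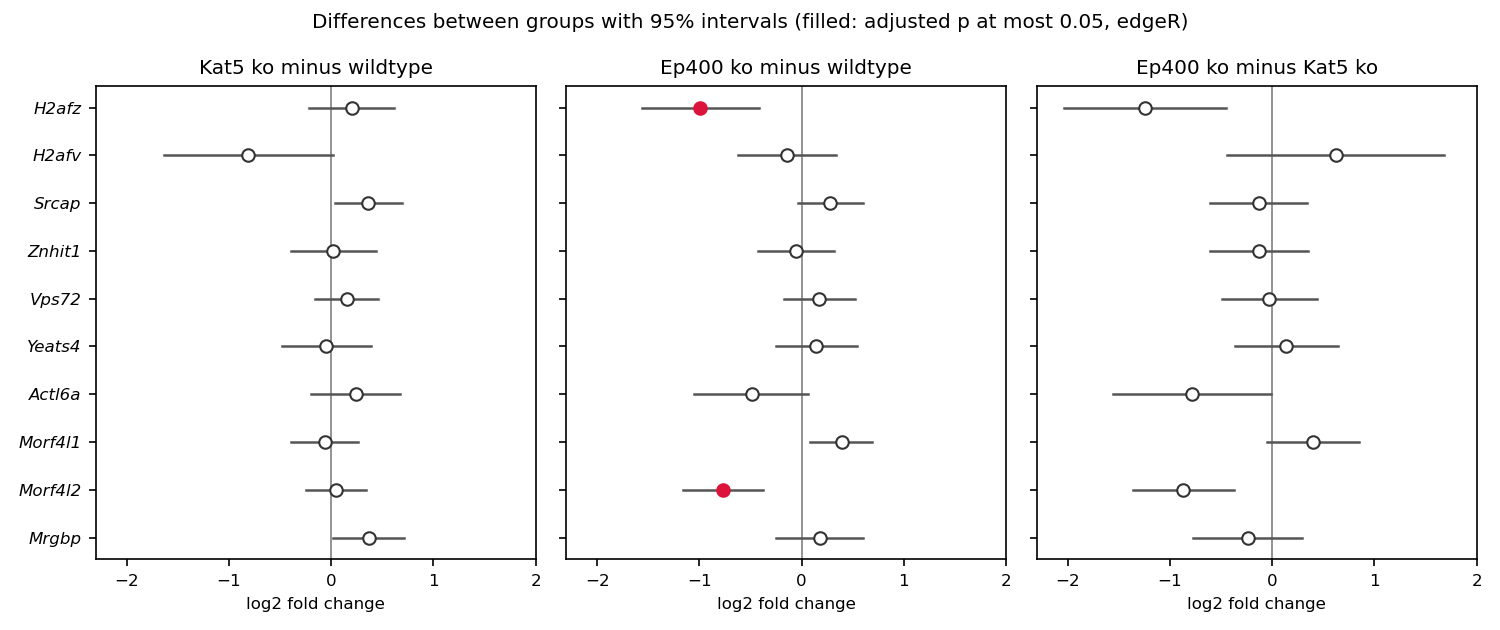
Log2-fold changes of the 10 genes in the 3 comparisons with 95% intervals from edgeR, with filled points for an adjusted p of at most 0.05. Only H2afz (−0.99) and Morf4l2 (−0.77) in Ep400 ko against wildtype are filled, and most other intervals include 0.

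Per kilobase of annotated exon, *H2afz* had the highest mean level of the 10 genes in every group (183 CPM per kilobase in wildtype), followed by *Morf4l2* (120). In wildtype and in Kat5 ko clones both were apart from each other and from the remaining genes. In Ep400 ko clones the ranges of *H2afz* (54.1 to 111) and *Morf4l2* (60.3 to 86.4) overlapped. In wildtype, *Yeats4* (25.2), *Actl6a* (21.7), *Morf4l1* (21.5), *Znhit1* (17.8), *Vps72* (15.5) and *H2afv* (13.5) followed, each with a range that overlapped with the next. *Srcap* (8.96) and *Mrgbp* (5.89) were lowest and apart from their neighbours. This order depends on the lengths. The annotated exons of *Morf4l1* cover 9754 bases and its longest coding transcript 1882. With the lengths of the longest coding transcripts, *Morf4l1* had 112 CPM per kilobase in wildtype, behind *H2afz* (303) and *Morf4l2* (189), and in Ep400 ko clones its 142 to 154 lay above all values of *Morf4l2* (94.7 to 136). With these lengths *Actl6a* (41.9) and *Vps72* (38.8) came next in wildtype, followed by *Znhit1* (27.4) and *Yeats4* (26.9), and *Mrgbp* (13.6), *H2afv* (13.5) and *Srcap* (13.3) were lowest with ranges that overlapped.

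Of 9 further subunit genes of the Tip60/Ep400 complex, those shared with the SRCAP complex not included, 4 were called higher in the Ep400 ko clones. This compares with 8.0% of all genes, and *Ep400* itself was called lower. By direction 5 of the 9 were higher and 4 lower. *Ing3*, a reader of methylated histone H3, had a log2-fold change of 0.88 (adjusted p = 0.0451), and *Epc1*, the scaffold of the acetyltransferase module, of 0.84 (adjusted p = 0.0133). In the Kat5 ko clones, *Kat5* was the 1 gene of the 9 that was called. Between the knockouts, *Ep400* was called lower and *Kat5* higher in the Ep400 ko clones. The 4 remaining SRCAP subunit genes, which include subunits shared with the Tip60/Ep400 complex, had 0 calls in each comparison with edgeR. DESeq2 called 0 in Kat5 ko and 2 in Ep400 ko against wildtype, and 3 between the knockouts. Over all genes it called 1489 of 13434, 3131 of 13836 and 3067 of 13587 in the same order. In Ep400 ko, *Ruvbl1* (log2-fold change −0.49, adjusted p = 0.127) and *Ruvbl2* (−0.81, adjusted p = 0.0801) lay below all wildtype libraries with edgeR's values. *Dmap1* (0.50, adjusted p = 0.0575) lay above them. Of all genes, 14.1% lay below and 16.1% above all wildtype libraries in this comparison.

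Of 13 genes for removal of H2A.Z and for its chaperones, 1 was called in the Ep400 ko clones, where 13.7% of all genes were. *Anp32e*, a chaperone that takes H2A.Z out of nucleosomes, had a mean of 157 CPM there and of 265 CPM in wildtype (log2-fold change −0.76, standard error 0.19, adjusted p = 0.0335). None of the 13 was called in the Kat5 ko clones by edgeR, with 1 gene past the limit without adjustment of p and 1 called by DESeq2. In Ep400 ko against wildtype, 4 of the 13 passed without adjustment and DESeq2 called 3. Between the knockouts these counts were 4 and 3 as well. Between the knockouts, *Ino80e*, a subunit of the INO80 complex, was the 1 gene of the 13 called and lower in the Ep400 ko clones (−0.94, adjusted p = 0.0474), compared with 7.05% of all genes. The 5 H2A.Z readers outside these complexes and the 4 other H2A variants had 0 calls in each comparison, as had 7 tested of 8 relatives and partners of the YEATS, actin-related and MRG proteins. These 5 readers, 4 variants and 7 relatives and partners were also counted together with the 4 SRCAP subunits. Without adjustment of p, 0 passed in Kat5 ko and 7 in Ep400 ko against wildtype, and 7 between the knockouts. The share of all genes at that limit is not given here. DESeq2 called 0, 5 and 6 of them, compared with 1489 of 13434, 3131 of 13836 and 3067 of 13587 genes. For limma-voom it was 0, 0 and 1, compared with 98, 1888 and 1132 of all genes.

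Across the 10 libraries, the genes with the pattern most like *H2afz* were *Psmb3* (Pearson's r = 0.991), *Eif4a1* (0.990) and *Atp5b* (0.988). For *H2afv* they were *Wbp1* (0.971), *Tpmt* (0.952) and *Ap1g2* (0.947), and for *Morf4l2* they were *Rpl10* (0.991), *Hgf* (0.984) and *Gm1045* (0.962). These are the highest of 14079 genes on the log2 CPM scale, the libraries share their groups, and the values are a description only.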

How the data were processed

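Polyadenylated RNA of 4 wildtype libraries, 3 Kat5 ko clones and 3 Ep400 ko clones had been prepared by the authors with a stranded kit, sequenced as paired reads of 100 bases and mapped to the mm10 assembly. What the authors deposited as raw counts are numbers of whole reads per gene. The submitters' processing notes name bcl2fastq 2.20, STAR 2.7.3, DESeq2 1.36.0 and R 4.2.1 without giving roles, and the annotation is not given in the sources used here. Deposited tables of normalized counts were not used. Samples were grouped by their labels.

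In R 4.3.3, genes were filtered with filterByExpr, libraries normalized by TMM and each pair of groups fitted separately with edgeR 4.0.16 (quasi-likelihood test with robust estimation, Benjamini-Hochberg adjustment over all genes tested, limit 0.05). TMM assumes that most genes did not change. CPM values use TMM factors over all 10 libraries, and log2 CPM a prior count of 2. Shares and sums of *H2afz* and *H2afv* were compared with exact permutation tests over libraries, adjusted over 3 comparisons. The biological coefficient of variation was 0.342 (Kat5 ko), 0.325 (Ep400 ko) and 0.409 (between knockouts). Libraries of the same group were not duplicates of each other (chi-square of their counts divided by its degrees of freedom, 26.1 to 239), and none were merged. The p-values measure the spread between these cultures and clones. Lengths and coordinates are those of GENCODE M21, to which 42462 of 43346 gene IDs matched. The fitting was tested on simulated data.

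The 10 genes and all gene lists were chosen with earlier results of these data known. All 10 were named, with up to 3 called genes of largest change per further list. Some uncalled SRCAP subunit genes and markers were named as well. Alternatives were DESeq2 1.42.0, limma 3.58.1 (voom), RLE size factors, library size alone, no filter, 1 fit over all libraries, a replicate block, offsets for chromosomes, raw counts for the share and each library left out. Lengths of the longest coding transcript were added after the data had been seen.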

Additional observations from a re-analysis of the deposited data

Results flagged for a closer look

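*Znhit1* had 25.8 CPM in WT/4, away from the other wildtype libraries, which had 34.9 to 36.7 CPM. The gap exceeded the 95% limit of Dixon's test. Among 12 quantities tested in this way in the group of 4, this was the 1 found, and chance gives about 1 in 20.

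*Morf4l2* was above its wildtype mean in every Kat5 ko clone and below it in every Ep400 ko clone, with a log2 difference between the knockouts of −0.87. The Kat5 ko clones stayed within the wildtype range, and the direct test of the difference missed the threshold (edgeR, adjusted p = 0.0525).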

How the results depend on the processing

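The number of genes called in Kat5 ko against wildtype was 84, and was 1489 with DESeq2, 286 without a filter, 27 in 1 fit over all libraries and 1 to 2654 with a library left out (2654 without Kat5/1). In Ep400 ko against wildtype it was 1899, 3131 with DESeq2 and 804 to 2020 with a library left out. Between the knockouts it was 958, and was 3067, 1445 and 3555 with DESeq2, no filter and 1 fit over all libraries, and 3 to 2537 with a library left out. Of the 10 genes, 2 were called in Ep400 ko against wildtype and 0 to 2 with a library left out, 0 in Kat5 ko against wildtype and 0 to 1, and 0 between the knockouts and 0 to 3. Between the knockouts, DESeq2 and the fit over all libraries each called 2 (*H2afz* and *Morf4l2*), limma-voom 1 (*Morf4l2*) and no filter 1 (*H2afz*). The cause was not tested.

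The sources used here do not state that replicate numbers pair the libraries. Residual correlations of libraries with the same number were −0.096 to 0.223. Libraries with different numbers were not compared in this way, so these values cannot decide whether the numbers pair them. With the replicate block, 0, 166 and 213 genes were called in the 3 comparisons and 0 of the 10 genes in each, with *H2afz* at −1.08 (adjusted p = 0.0839) and *Morf4l2* at −0.72 (adjusted p = 0.115) in Ep400 ko against wildtype.

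Over the alternatives, the adjusted p in Ep400 ko against wildtype was 0.002 to 0.0898 for *H2afz* and 0.000485 to 0.115 for *Morf4l2*. Directions turned for small differences only. *Znhit1* in Kat5 ko became −0.02 with library size alone, −0.09 with the replicate block, −0.03 with chromosome offsets and −0.12 to 0.11 with a library left out. *Morf4l2* in Kat5 ko became −0.00111 with library size alone. *H2afv* in Ep400 ko became 0.04 with chromosome offsets and was −0.34 to 0.03 with a library left out. *Vps72* between the knockouts became 0.09 with library size alone, 0.02 with chromosome offsets and was −0.18 to 0.06 with a library left out. With a library left out, *Yeats4* and *Morf4l1* in Kat5 ko were −0.19 to 0.09 and −0.15 to 0.01, and *Znhit1* between the knockouts −0.21 to 0.01. The lowest count of any of the 10 genes was 258, of *H2afv* in Kat5/2.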
